A study of Mus musculus with 5 samples.

Results

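The histone cluster genes are the genes whose symbol begins with Hist1h, Hist2h, Hist3h or Hist4h. They were taken here where at least 20 UMIs (unique molecular identifiers, each marking 1 captured RNA molecule) were counted over 5 libraries, and 62 of 67 such symbols qualified, among 32285 genes in all. They comprise 5 genes of the linker histone H1, 17 of H2A, 16 of H2B, 12 of H3 and 12 of H4, of which 49 belong to gene cluster 1, 10 to cluster 2, 2 to cluster 3 and 1 to cluster 4. The genes left out were Hist1h1t (14 UMIs), Hist1h2aa (4), Hist1h2bq (4), Hist1h4m (2) and Hist1h2ba (2), and the member nearest to the limit was Hist2h2aa2 with 22 UMIs. Together the 62 genes held 532392 UMIs, and the 15 most abundant held 437466 of these, led by Hist1h1b with 90288 and Hist1h1e with 60584.

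Renca is a mouse renal cortical adenocarcinoma line, grown here under the skin of wild-type Balb/c mice. Mice received PBS or 2 intraperitoneal treatments, from day 10 after injection, with antibodies to PD-1 and CTLA-4 (PD1+CTLA4), PD-1 and CD40 (PD1+CD40), CD40 and CTLA-4 (CD40+CTLA4), or to all 3 targets (Triplet), at 200 µg of each antibody. Tumours were taken 24 hours after the second treatment, and sorted T cells, other leukocytes and CD45-negative cells were mixed at 2:1:1 in equal parts from 3 mice, so each group is 1 pooled droplet library. Values for the 5 libraries are given below in the order PBS, PD1+CTLA4, PD1+CD40, CD40+CTLA4 and Triplet, unless named.

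A histone octamer of H2A, H2B, H3 and H4 wraps DNA into the nucleosome, and H1 binds the DNA that enters and leaves it. Most genes of the histone clusters are replication-dependent: they are transcribed when DNA is copied in S phase, have no introns, and give mRNAs that end just behind a conserved stem-loop instead of in a poly(A) tail. The stem-loop is bound by SLBP, encoded by Slbp, and the RNA is cut by a complex that contains the U7 snRNP. Some of these genes also yield polyadenylated RNA, chiefly in cells that have left the cycle. Droplet kits prime on poly(A), so a count here is of captured molecules and need not follow the amount of histone mRNA.

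The stem-loop sites are shown because they are the feature that defines this class of mRNA. In the GENCODE vM21 transcript models (GRCm38), all 62 genes had a coding model, 11 models ended at the stop codon, and 43 of the other 51 held a stem-loop. It was searched for on the transcript strand as 16 bases that begin with GG, end with CC and pair over their outer 6 positions, with G opposite T allowed. It began between bases 22 and 59 after the stop codon (median 32), whereas 0.909% of 21119 other coding genes held such a run in the first 100 bases there. There were 8 different stem-loops, the most frequent of which was shared by 25 genes. Capitals mark the 16 bases, with the 5 bases on either side in lower case.
Hist1h1c: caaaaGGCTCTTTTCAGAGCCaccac
Hist1h1e: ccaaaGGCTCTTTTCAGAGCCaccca
Hist1h2ae: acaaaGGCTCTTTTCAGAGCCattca
Hist2h2ac: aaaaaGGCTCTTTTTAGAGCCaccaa
Hist3h2a: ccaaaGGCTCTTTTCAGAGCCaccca
Hist1h3c: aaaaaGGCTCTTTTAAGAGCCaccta
Hist1h4d: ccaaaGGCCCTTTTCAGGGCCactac
Hist1h4i: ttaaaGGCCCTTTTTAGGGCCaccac
The sites of Hist1h1e and Hist3h2a have the same 26 bases, although the genes differed in cycling cells, as described further on. Many members are near-identical copies. Of their transcripts' 60-base windows, fewer than 50% belonged to 1 gene alone for 29 members, and all did for 3 members. Reads of such copies may have been split or dropped when they were counted, so single values of these genes are uncertain. Among genes named below, this share was 7.09% for Hist1h2ap, 57.4% for Hist1h3c, 60.8% for Hist1h2ae, 70.5% for Hist2h2ac, 92.4% for Hist1h1c and 93.0% for Hist1h4d.

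The libraries held 61792481 to 95867828 UMIs and 4404 to 16884 kept cells, with medians of 1422 to 13124 UMIs per cell. In PD1+CD40 and CD40+CTLA4, 63.8% and 61.1% of kept barcodes lay in clusters with the profile of free RNA, against 0.704% to 2.02% in the other libraries, and these were assigned to no class. That profile was taken from CD40+CTLA4 alone. Barcodes of a library whose free RNA differs from it may not match, so these shares need not be comparable between libraries. The PBS library stands apart: its header names an older Cell Ranger version, V segments made up 75.3% of the T cell receptor UMIs of its T cells (3.9% to 5.26% elsewhere), and 3.86% of its barcodes occur in the CD40+CTLA4 list (at least 97.3% for each treated library). Pairs of libraries shared 0 to 69 cell barcodes. Classes were named from marker genes of clusters built without histone and cell cycle genes. The tumour class expressed Krt8, Krt18 and Pax8 in all 5 libraries (Krt8 at 753.4 to 1798 counts per 1000000 UMIs, CPM, in cycling cells), while in cycling cells Cdh2 was at 0 in all 5, Krt19 at 0 in 3 and Epcam at 0 in 2. With 1 library per group there is no test between treatments. Intervals given between libraries are 95% exact intervals that cover counting error only, and p-values within libraries measure only the spread between these libraries.

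Histone cluster transcripts were concentrated in cycling cells, defined as cells with at least 2 UMIs of Mki67 and Top2a together, 2 proliferation genes outside the histone family. In cycling mononuclear phagocytes (macrophages and monocytes) the summed level was 1301, 3465, 3019, 2916 and 3770 CPM, against 221.2, 407.4, 431.2, 408.0 and 432.7 CPM in phagocytes with neither transcript. All cycling values lay above all non-cycling ones. Cycling T cells reached 2361, 5854, 7797, 7047 and 7154 CPM, the highest of the 3 lineages in each library, and non-cycling T cells held 402.5, 449.2, 604.3, 485.7 and 629.4 CPM. Cycling tumour cells stayed at 340.2, 865.6, 992.8, 1154 and 1022 CPM, so that their highest library lay below the lowest of cycling phagocytes and T cells. The cycling call is a fixed number of UMIs, which deeper cells reach more easily. Cycling medians were 25361 to 37559 UMIs per cell in tumour cells, 12580 to 18874 in phagocytes and 6478 to 9710 in T cells. Top2a was at 200.5 to 365.0 CPM in cycling tumour cells, 235.3 to 502.7 in phagocytes and 372.5 to 796.8 in T cells. The part of depth in the order of the lineages was not tested. Non-cycling tumour cells held 130.9, 303.1 and 338.5 CPM in PBS, PD1+CTLA4 and Triplet. The other 2 libraries had 14 and 17 such cells, too few to use. Their cycling tumour values rest on 20 and 40 cells. Natural killer cells resembled T cells in level, with 5890 and 5754 CPM in the cycling cells of PD1+CTLA4 and CD40+CTLA4. Non-cycling neutrophils, short-lived granulocytes, held 529.9, 1670, 1518, 1232 and 1175 CPM, more than non-cycling phagocytes and T cells of the same library in all 5. Non-cycling B cells and natural killer cells lay above neutrophils in PBS (857.1 and 628.4 CPM) and below them in PD1+CTLA4 (630.1 and 631.3 CPM). These neutrophils had medians of only 854 to 1332 UMIs, and the part of free RNA in their level was not tested.

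**Figure D1:**
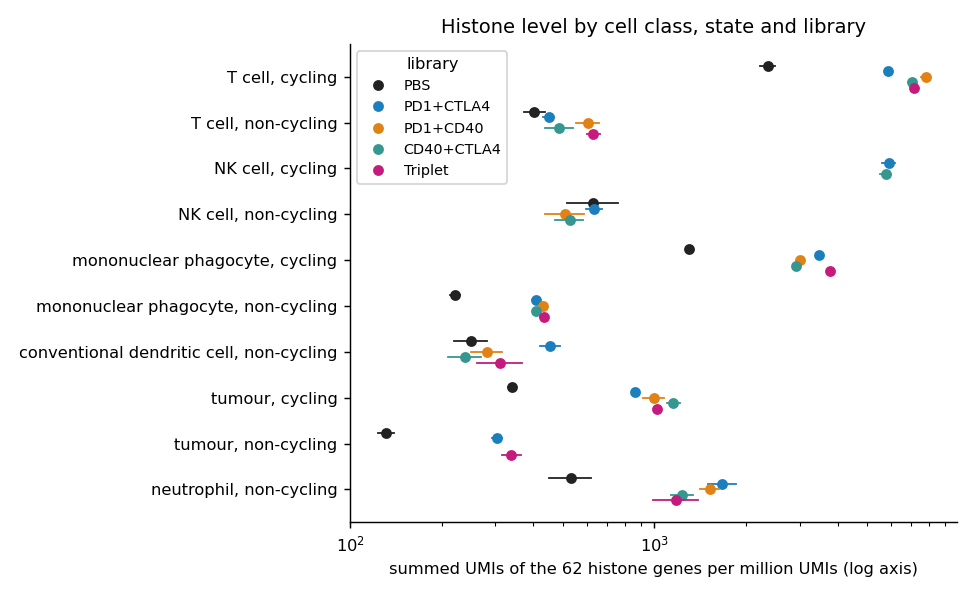
Summed level of the 62 histone cluster genes (CPM, log axis) by cell class, cycling state and library, with 95% Poisson intervals. Cycling phagocytes and T cells lie at or above 1301 CPM in every library, and cycling tumour cells at 340.2 to 1154 CPM.

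Cycling cells therefore carried a larger part of the histone UMIs of each lineage than of its UMIs of all genes. In phagocytes the cycling cells held 77.6, 84.5, 83.1, 83.2 and 90.9% of the histone UMIs but 38.0, 39.8, 41.9, 41.5 and 53.6% of all UMIs. In T cells the shares were 63.2, 82.8, 85.7, 91.0 and 79.0% of histone UMIs against 22.7, 27.5, 31.8, 40.6 and 25.2% of all UMIs. In tumour cells they were 72.0, 74.9, 85.5, 90.4 and 83.6% against 49.2, 50.8, 57.5, 71.4 and 62.2%. In each library the gap between these shares was smallest in the tumour class.

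Within phagocytes, 59 members passed the filter on low counts, 53 were higher in cycling cells and 1 was lower (edgeR quasi-likelihood test with library as a block, adjusted p under 0.05 over all genes). Over all 12923 genes tested, 20.7% were called higher and 23.2% lower. The members' median log2 difference was 3.30, against -0.03 for all genes tested. By class, the genes called higher were 5 of 5 tested for H1, 13 of 14 for H2A, 14 of 16 for H2B, 10 of 12 for H3 and 11 of 12 for H4. A gene that passed the filter only through the cycling cells had to differ, so these counts describe the tested genes alone. The same limit holds for the counts of the tested contrasts below. Without regard to the filter, 45 of 62 members had all 5 cycling libraries above all 5 non-cycling ones, compared with 6.57% of genes with at least 20 UMIs.

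Among the linker histones, Hist1h1b (the H1.5 gene) was at 213.2, 913.4, 578.0, 623.4 and 790.0 CPM in cycling phagocytes and at 11.8, 29.3, 14.2, 13.2 and 12.6 CPM in non-cycling ones. The 2 states do not overlap in any library. The log2 difference was 5.19 (SE 0.20, edgeR adjusted p = 9.67e-09). Hist1h1e, the H1.4 gene, was at 186.7, 424.9, 298.2, 274.6 and 340.4 CPM against 43.7, 87.3, 49.9, 31.8 and 41.6 CPM, a log2 difference of 2.57 (SE 0.14, edgeR adjusted p = 1.37e-07). Hist1h1d, the H1.3 gene, was at 6.93 to 20.2 CPM in the non-cycling cells. Free RNA, read from barcodes too small to be cells, held Hist1h1e at 714.0 CPM in PBS and 194.4 CPM in CD40+CTLA4, and its part in non-cycling levels was not tested. Hist1h1c, the H1.2 gene, changed least of the H1 genes: it was at 71.3, 109.5, 97.8, 100.3 and 95.7 CPM in cycling and 39.7, 50.95, 55.2, 52.7 and 49.9 CPM in non-cycling phagocytes. Its libraries did not overlap either, but the log2 difference was only 0.87 (SE 0.05, edgeR adjusted p = 4.66e-07). Hist1h1a, the H1.1 gene, was at 23.5 to 46.7 CPM in cycling phagocytes and 0.550 to 3.16 CPM in the rest.

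H2A genes showed both the steepest rise and the only fall. Hist1h2af was at 8.35, 49.97, 57.3, 43.7 and 85.6 CPM in cycling phagocytes and at 0.157, 0.526, 1.08, 0.734 and 1.12 CPM in non-cycling ones. Its log2 difference of 5.94 (SE 0.10, edgeR adjusted p = 5.95e-11) was the largest of the tested members. Hist1h2ap was at 53.0, 133.9, 397.2, 500.5 and 319.3 CPM against 2.04, 4.63, 14.5, 14.9 and 9.64 CPM (log2 difference 4.88). Both states of Hist1h2ap were highest in CD40+CTLA4 and lowest in PBS. Hist1h2ae was at 218.9, 273.4, 301.1, 295.2 and 374.3 CPM against 11.4, 12.5, 16.9, 16.6 and 17.0 CPM (log2 difference 4.23), and it varied less between libraries. Hist2h2ac, from cluster 2, was at 29.2, 106.1, 95.1, 83.7 and 126.9 CPM against 10.0, 14.4, 11.7, 9.83 and 11.8 CPM (log2 difference 2.83). The cluster 3 gene Hist3h2a ran the other way: it was at 1.13, 5.35, 9.76, 9.76 and 8.32 CPM in cycling and 1.72, 7.47, 16.4, 17.4 and 17.5 CPM in non-cycling phagocytes. It was lower in the cycling cells of all 5 libraries, by a log2 difference of -0.87 (SE 0.09, edgeR adjusted p = 3.45e-05). Without the library block the adjusted p was 0.565. The level of Hist3h2a differed more between libraries than between states.

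Of the H2B genes, Hist2h2bb rose in cycling phagocytes, at 27.6, 87.0, 55.8, 41.7 and 82.0 CPM against 2.98, 5.90, 4.30, 3.34 and 3.21 CPM (log2 difference 3.79). Hist1h2bn and Hist1h2bl were among the 6 members with the largest differences, at 5.26 and 5.199 on the log2 scale. Hist1h2bc did not follow: it was at 15.97, 53.6, 92.1, 90.3 and 69.0 CPM in cycling and 10.0, 40.3, 110.9, 130.2 and 113.1 CPM in non-cycling phagocytes. It was higher in cycling cells in PBS and PD1+CTLA4 and lower in the 3 libraries that received anti-CD40, and its log2 difference of -0.27 did not pass the test (edgeR adjusted p = 0.184; 0.0258 with a difference of -0.43 without PD1+CTLA4). Hist2h2be, the other H2B gene that did not pass, had a log2 difference of 0.82 (edgeR adjusted p = 0.074).

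Of the H3 genes, Hist1h3c was nearly restricted to cycling phagocytes in these counts, at 11.5, 100.8, 74.0, 67.3 and 103.1 CPM against 0.705, 1.47, 1.68, 1.17 and 2.32 CPM. Its log2 difference was 5.53 (SE 0.13, edgeR adjusted p = 2.82e-10). Hist1h3e was at 32.3, 88.7, 67.1, 57.2 and 104.9 CPM against 7.91, 9.47, 5.94, 4.66 and 6.06 CPM (log2 difference 3.31). The copies Hist2h3c1 and Hist2h3c2 did not pass the test, with log2 differences of -0.67 (edgeR adjusted p = 0.135) and -0.14 (0.721). Without PBS the value of Hist2h3c1 was -0.92 (edgeR adjusted p = 0.026).

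Of the H4 genes, Hist1h4d was the most abundant by count, at 62.4, 308.1, 222.1, 163.2 and 362.2 CPM in cycling and 12.4, 28.3, 23.9, 12.3 and 28.6 CPM in non-cycling phagocytes (log2 difference 3.28, SE 0.16, edgeR adjusted p = 5.78e-08). Hist1h4h was at 4.33, 54.1, 53.0, 50.1 and 81.6 CPM against 1.96, 4.32, 7.20, 8.66 and 10.9 CPM. Its cycling value in PBS falls within the non-cycling range. Hist1h4i was the H4 gene without a called difference: it was at 19.6, 26.5, 32.0, 31.0 and 29.8 CPM against 11.1, 17.1, 29.1, 32.2 and 33.3 CPM (log2 difference 0.13, edgeR adjusted p = 0.393). Hist4h4, alone in cluster 4, was at 35.7, 15.9, 10.9, 9.05 and 15.2 CPM against 14.1, 4.63, 3.97, 3.60 and 5.23 CPM, with its highest values in PBS in both states.

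In T cells, 27 members passed the filter and 26 were higher in cycling cells (edgeR, adjusted p under 0.05; background 24.4% of 7755 genes). The exception was Hist4h4, with a log2 difference of 0.52 (SE 0.22, edgeR adjusted p = 0.0626; 0.0391 without Triplet, with a difference of 0.67). With no filter on low counts, 55 of 61 members were called higher. The largest differences were those of Hist1h3c (5.84), Hist1h2ap (5.72), Hist1h1b (5.48) and Hist1h2ae (5.38). Hist1h1b was at 415, 1565, 1573, 1414 and 1363 CPM in cycling T cells and at 28.2, 21.6, 43.1, 16.7 and 33.9 CPM in non-cycling ones. The smallest called differences were those of Hist1h1c (1.44), Hist3h2ba (1.49), Hist1h2bc (1.58) and Hist1h4i (1.88), and Hist1h2bc and Hist1h4i are thus genes that passed in T cells but not in phagocytes. The difference between the lineages' responses was not tested. Phagocyte markers summed to 361.0 to 1312 CPM in cycling T cells. PBS held 44 cycling T cells, the fewest. Without regard to the filter, 36 of 62 members had all 5 cycling T cell libraries above all 5 non-cycling ones, and 0 had them below (background 7.48% and 5.7% of genes).

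In tumour cells of PBS, PD1+CTLA4 and Triplet, 26 members passed the filter, 19 were higher in cycling cells and 1 was lower (edgeR, adjusted p under 0.05; background 11.5% higher and 10.3% lower of 12798 genes). Without the library block 6 were higher. Without regard to the filter, 15 of 62 members had all 5 cycling libraries above the 3 non-cycling ones, and 0 had them below (background 4.32% and 1.56%). Hist1h3c had the largest difference: cycling tumour cells of these libraries held 3.58, 45.2 and 69.6 CPM and non-cycling ones 0.386, 0.397 and 1.71 CPM, a log2 difference of 5.80 (SE 0.25). Hist1h2bc, the H2B gene with no called difference in phagocytes, was lower in cycling tumour cells, at 7.66, 52.5 and 51.4 CPM against 11.1, 84.3 and 123.4 CPM in the non-cycling ones (log2 difference -0.88, SE 0.10, edgeR adjusted p = 4.58e-07). The direction was the same in each of the 3 libraries, and without the block the adjusted p was 1.0. Hist1h4d (0.86, adjusted p = 0.0763) and Hist1h3e (0.61, adjusted p = 0.608) did not pass in edgeR's test. Both were near 0 in tumour cells, as set out below, and for Hist1h3e the call depends on PBS (2.51 without it, adjusted p = 0.00702).

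**Figure D2:**
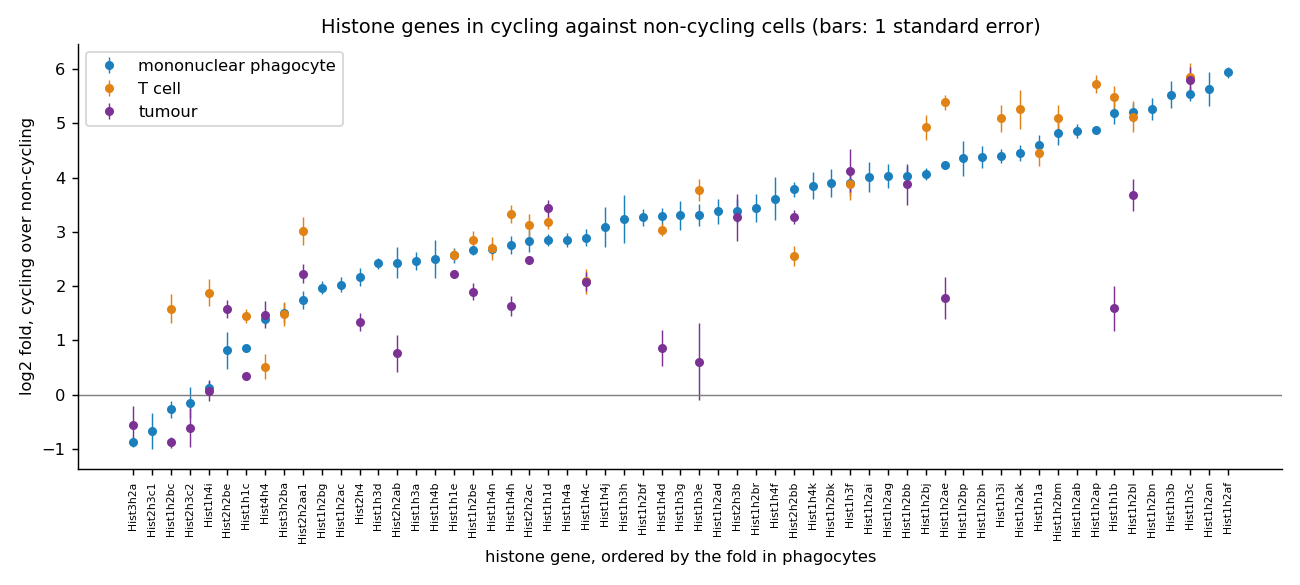
Log2 difference of cycling over non-cycling cells for each tested member in phagocytes, T cells and tumour cells, with bars of 1 SE (edgeR). Most tested members lie above 0 in all 3 lineages, and Hist3h2a in phagocytes and Hist1h2bc in tumour cells were called lower.

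Histone transcripts were higher in cells leaning to G2M genes than in cells leaning to S phase genes. Cells with at least 10 UMIs over lists of 32 S phase genes and 34 G2M genes, neither holding histone genes, were called S-leaning where S phase genes made up at least 2/3 of these UMIs and G2M-leaning at 1/3 or less. Mki67 and Top2a were not required, so these cells include some not called cycling. In PBS, 335 tumour cells had an S share of 80 to 100%, whereas 309 tumour cells were called cycling. How far this contrast repeats that of non-cycling against cycling cells was not tested. In phagocytes all 51 tested members were lower in S-leaning cells (edgeR, adjusted p under 0.05; background 18.2% of 11693 genes), with a median log2 difference of -2.40. The steepest were Hist1h2af (-3.49) and Hist1h3c (-3.27), and the shallowest were Hist1h3a (-0.85) and Hist3h2a (-0.90). Genes with little or no difference between cycling and non-cycling phagocytes also moved: Hist1h2bc was lower in S-leaning cells by -1.56, Hist1h4i by -1.51 and Hist1h1c by -1.95. In T cells of PD1+CTLA4, PD1+CD40 and Triplet, 31 of 35 tested members were lower (background 3.98%). Those not called were Hist1h4i (-1.24), Hist1h4a (-0.61), Hist1h1a (-0.53) and Hist1h3a (0.01). In tumour cells of 4 libraries, PD1+CD40 being left out for too few cells, 21 of 24 were lower (background 16.2%, and 7 without the library block), with a median of -1.76. Hist1h2bc (0.03, adjusted p = 0.867) and Hist3h2a (-0.14, adjusted p = 0.822) did not pass edgeR's test there.

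The level was highest at mixed or low S shares, and not at the top. Over bins of S share of 0 to 20, 20 to 40, 40 to 60, 60 to 80 and 80 to 100%, the summed level in PD1+CTLA4 phagocytes was 2563, 4827, 3875, 984.7 and 390.1 CPM. In Triplet phagocytes it was 3441, 4650, 3887, 1551 and 337.2 CPM, and in PBS phagocytes 948.6, 1644, 1398, 566.6 and 154.1 CPM. In phagocytes of all 5 libraries the bin of 20 to 40% was highest and that of 80 to 100% lowest, and the latter lay below cells with fewer than 10 UMIs of both lists (220.5 to 427.1 CPM). Cells in the top bin can be cells with a few S phase UMIs only, and how deep in S phase they were is not known. Tumour cells had the same low end, with 274.4, 392.8, 480.3, 282.9 and 96.99 CPM in PBS and 669.3, 1396, 1528, 672.7 and 256.1 CPM in Triplet. Their highest bin was 40 to 60% in both of these libraries, whereas tumour cells of PD1+CTLA4, at 593.7, 1229, 1035, 518.1 and 262.9 CPM, were highest at 20 to 40%. T cells of PD1+CTLA4 ran from 5126 over 7317, 5163 and 2693 to 1050 CPM, while those of Triplet were highest in the lowest bin, at 8178 CPM.

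**Figure D3:**
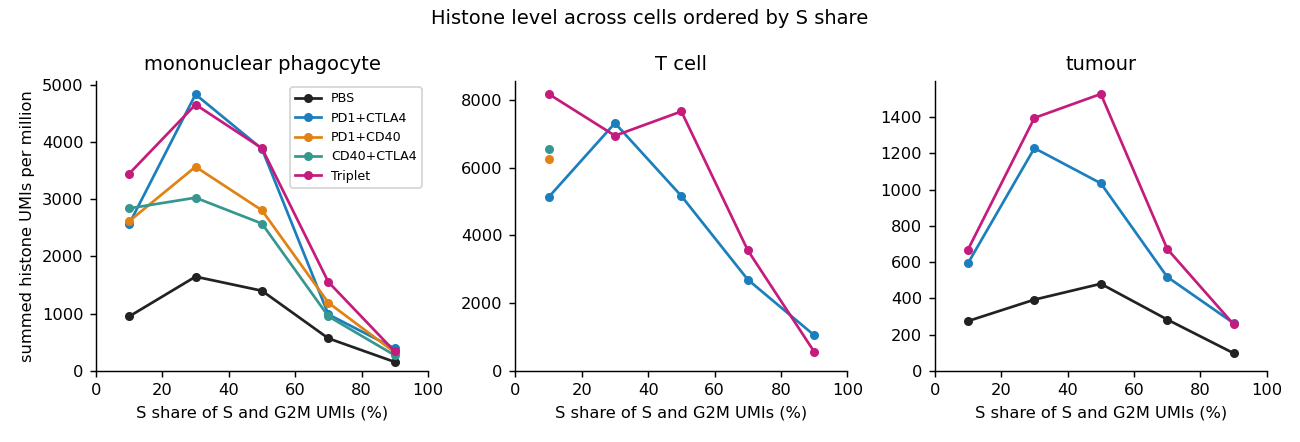
Summed level of the 62 histone cluster genes (CPM) by the S phase genes' share of S phase and G2M UMIs in a cell, for phagocytes, T cells and tumour cells of each library. Phagocytes of every library peak at 20 to 40% and are lowest at 80 to 100%.

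Cycling tumour cells held almost no transcripts of a large set of histone genes. Tumour cells were also deeper than phagocytes and T cells, as given above, and the part of depth here was not tested. Of 54 members tested against cycling phagocytes of the same libraries, 49 were lower and 2 higher (edgeR, adjusted p under 0.05; background 39.4% lower and 33.1% higher of 13270 genes), with a median log2 difference of -4.52 against -0.10 for all genes. These fits use TMM scaling, and scaling by total UMIs, as CPM does, raised the median of all genes by 0.529. On that scale 42 members were lower and 3 higher (background 24.3% and 51.7%). A member that passed the filter only through the phagocytes had to be lower, so these counts and medians describe the tested members alone. Of the tested members, 2 had 0 UMIs and 3 had 1 to 3 UMIs in cycling tumour cells. The differences fell into 2 sets with a gap between -4.37 (Hist1h2af) and -3.27 (Hist1h2bp): 28 members at -4 or lower and 26 above. This split was made after the values were seen and carries no test. Of all 62 members, 33 had all 5 tumour libraries below all 5 phagocyte libraries (background 15.9% of genes) and 1 had them above (background 29.2%). The 28 low members summed to 6.241, 23.59, 10.68, 89.86 and 28.11 CPM in cycling tumour cells, against 743.1, 2110, 1906, 1916 and 2425 CPM in cycling phagocytes. The remaining 26 and the untested members summed to 333.9, 842.0, 982.1, 1064 and 993.6 CPM against 557.6, 1356, 1113, 1000 and 1345 CPM. The low set thus made up 2.86% of the histone UMIs of cycling tumour cells (771 UMIs) and 63.7% of those of cycling phagocytes (161730 UMIs).

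The low set held members of every class. Hist1h1b was at 0.915, 7.89, 1.53, 26.8 and 4.55 CPM in cycling tumour cells far below the phagocyte values given above, and its log2 difference was -7.24 (SE 0.48, edgeR adjusted p = 2.38e-06). Hist1h1a was at 0.0832, 0.245, 0, 0.725 and 0.314 CPM, with a log2 difference of -8.01 (SE 0.30). Hist1h2ap was at 0.166, 1.53, 0, 24.6 and 4.397 CPM (log2 difference -6.58). For Hist1h1b and Hist1h2ap, CD40+CTLA4 is the high library, and there 36 of the 37 UMIs of Hist1h1b and 30 of the 34 of Hist1h2ap lay in 1 cell. Hist1h2ae was at 1.66, 2.69, 0, 15.2 and 2.98 CPM (log2 difference -6.96), Hist1h3e at 0.0832, 1.35, 0, 2.90 and 1.88 CPM (log2 difference -6.60), and Hist1h4d at 1.498, 3.18, 3.05, 5.80 and 3.61 CPM (log2 difference -6.65, SE 0.27, edgeR adjusted p = 1.83e-07). Over the 5 libraries, 4 members had 0 UMIs among the 36781294 of cycling tumour cells. Taking 3 counts over the group as the floor, they were at least 38.0-fold (Hist1h2ad), 37.7-fold (Hist1h2bk), 35.1-fold (Hist1h2ah) and 10.8-fold (Hist1h2ao) lower than in cycling phagocytes. Another 6 had 1 to 3 UMIs, such as Hist1h2bf with 1 UMI, a ratio to phagocytes of 0.00378 (95% interval 9.54e-05 to 0.0211).

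Other members differed less or were higher in cycling tumour cells. Hist2h2ac was at 46.9, 229.8, 265.4, 296.4 and 272.3 CPM in cycling tumour cells and higher than in cycling phagocytes in all 5 libraries (log2 difference 0.71, SE 0.15, edgeR adjusted p = 0.00275; 0.142 without the library block). Hist2h2be was at 12.5, 11.98, 25.9, 23.9 and 13.4 CPM against 9.27, 7.18, 2.56, 2.02 and 3.46 CPM (log2 difference 1.28, SE 0.48, edgeR adjusted p = 0.0386). That call was lost without PD1+CD40, CD40+CTLA4 or Triplet, with adjusted p-values of 0.0819, 0.0591 and 0.0678. Hist1h1c was at 64.9, 103.8, 96.1, 102.9 and 83.5 CPM, within or near the range of the phagocyte CPM values above (log2 difference -0.61 with TMM scaling; -0.08 by total UMIs, edgeR adjusted p = 0.369). Intermediate differences were found for Hist2h2bb (-0.57), Hist1h2be (-0.91), Hist1h4h (-1.16), Hist1h3c (-1.36), Hist1h1e (-1.73) and Hist1h1d (-1.95). Those with no called difference were Hist1h4c (-0.47), Hist2h3b (-0.39) and Hist2h4 (0.03). Scaled by total UMIs, Hist1h4c (0.06) and Hist2h3b (0.15) changed sign, Hist2h4 was called higher (0.56, adjusted p = 0.032) and Hist2h2bb was no longer called lower (-0.04, adjusted p = 0.859) in edgeR's test.

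The same contrast against cycling T cells shares the tumour sums, so it is no independent repeat. There 28 of 32 tested members were lower and 3 higher (edgeR; background 32.2% and 36.7% of 9358 genes). The lowest were Hist1h1a (-8.28), Hist1h1b (-7.89), Hist1h2ae (-7.66) and Hist1h4d (-7.40), and those higher were Hist2h2be (2.92), Hist1h2bc (0.80) and Hist2h2ac (0.34). The call of Hist2h2ac was lost without PBS, PD1+CD40 or CD40+CTLA4 (adjusted p = 0.0788, 0.0874 and 0.328). In non-cycling cells of PBS, PD1+CTLA4 and Triplet, 15 of 27 tested members were lower in tumour cells than in phagocytes and 0 were higher (edgeR; background 33.9% lower and 32.9% higher). Scaled by total UMIs, 14 were lower and 4 higher (background 22.4% and 50.9%), the latter being Hist2h3c2 (2.49), Hist2h4 (1.52), Hist2h2ac (1.16) and Hist1h1c (0.46). Hist1h2ae (-4.78), Hist1h2ap (-4.51), Hist1h4d (-4.47), Hist1h3e (-4.38) and Hist1h1b (-4.17) had large differences there too, whereas Hist1h1c (-0.11) and Hist1h2bc (-0.10) did not pass with TMM scaling and changed sign by total UMIs (0.46 and 0.47). Against non-cycling T cells, 12 of 21 tested members were lower in tumour cells (background 38.0%), and 2 were higher (background 37.8%), the H2B genes Hist1h2bc (3.58) and Hist2h2be (1.85). Of all 62 members, 19 had the 3 tumour libraries below all 5 T cell libraries and 2 had them above (background 19.7% and 37.2%).

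Traces of other cells were present in the tumour class. In cycling tumour cells the 16 phagocyte markers, all detected, summed to 605.3, 388.7, 424.0, 1202 and 341.2 CPM, against 27970, 14650, 24000, 24770 and 17050 CPM in cycling phagocytes. They were thus highest in CD40+CTLA4, as was the low set. In that library 19 of 62 tumour barcodes (30.6%) held at least 3 UMIs of the markers of another lineage, against 4.70 to 19.5% in the others. Without such barcodes, 47 of 51 tested members were lower in tumour cells than in phagocytes. When cells were classed by their own marker UMIs and not by cluster, 29 of 56 were lower. Hist1h1a was then at -2.85 and Hist1h2bf at -2.43, against -8.01 and -8.13 with cluster classes. The part of mixed barcodes in these values was not tested further. Thinned to 1000 UMIs per cell, Hist1h1b had a UMI in 0.552, 0.668, 0, 0 and 0.604% of tumour cells (4.28, 3.78, 7.32, 6.45 and 7.25% unthinned), against 2.07, 4.69, 3.14, 4.31 and 5.26% of neutrophils and 6.74, 13.9, 10.6, 11.8 and 18.4% of phagocytes. The median tumour cell had 22312 to 32779 UMIs and the median neutrophil 856 to 1338, and 2.15 to 7.41% of neutrophils had a UMI unthinned. In PBS, PD1+CTLA4 and Triplet the thinned tumour share was below that of neutrophils, with exact intervals that overlap. Thinning left out cells under 1000 UMIs, which were 59, 169 and 24 neutrophils in these libraries and no tumour cell. The neutrophil shares of PBS, PD1+CTLA4 and Triplet rest on 3 cells with a UMI in each library, among 145, 64 and 57 thinned cells. The thinned neutrophils are thus a deeper part of their class. The shares of 0 in PD1+CD40 and CD40+CTLA4 rest on 41 and 62 cells, with exact intervals that reach up to 8.6% and 5.78%, so no order can be given there.

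Most of the low set lay in the Hist1 cluster. In the GENCODE order the set held 27 of 44 tested genes on chromosome 13, which carries that cluster, 0 of 7 on chromosome 3 (Hist2), 1 of 2 on chromosome 11 (Hist3h2ba) and 0 of 1 on chromosome 6 (Hist4h4). Along chromosome 13 the tested genes formed 14 runs of members in the low set or outside it. The longest low run had 9 genes from Hist1h2ai to Hist1h2an, followed by one of 7 from Hist1h3e to Hist1h4d and one of 4 from Hist1h4n to Hist1h2bk. The longest run outside it had 8 genes from Hist1h2be to Hist1h2bb, and another of 4 ran from Hist1h2bh to Hist1h1d. Neighbouring copies share sequence, so they are not independent. Among the 26 members with at least 60% of windows of their own, 8 were in the low set, including Hist1h2ae and Hist1h4d, and 18 were not. Over all tested members 28 were in the set and 26 were not. Low members were thus more frequent among those under 60%, and the part of shared sequence in this was not tested. The transcript end also differed: 15 tested members with a poly(A) signal (AATAAA or ATTAAA) behind the stem-loop in their model had a median log2 difference between cycling tumour cells and phagocytes of -1.97, and 22 without one had -6.39. In cycling against non-cycling phagocytes the medians were 2.42 for 16 genes (-0.87 to 4.38) and 3.31 for 25 genes (-0.14 to 5.53). Models with a signal were longer behind the stem-loop, with a median of 1003.5 bases against 37.0, so the signal and the length of the model cannot be told apart.

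Within libraries, most members were called higher in cycling T cells than in cycling phagocytes. Of 56 tested, 42 were higher and 4 lower (edgeR; background 21.6% and 28.8% of 11177 genes), with a median log2 difference of 0.89, and 23 were higher without the library block. Cycling T cells held fewer UMIs per cell than cycling phagocytes, as given above, and the part of depth was not tested. In the same contrast 21 of 32 S phase genes were higher and 0 lower (median 0.61). Of 34 G2M genes, 6 were higher and 3 lower (median 0.05). The part of cycle phase in the histone differences was not tested. Across libraries the ranges mostly overlapped: 9 of 62 members had all 5 T cell libraries above all 5 phagocyte libraries and 0 had them below (background 11.6% and 17.9%), a share near the background. Hist1h1e (1.07) and Hist1h1b (0.87) were among the higher genes, and Hist3h2ba (2.02) and Hist1h3a (1.79) were the farthest up. The lower ones were Hist1h2bc (-1.79), Hist2h2be (-1.77), Hist3h2a (-1.73) and Hist1h3d (-1.27). In cells with neither Mki67 nor Top2a, 12 of 32 were higher in T cells and 5 lower (background 31.4% and 33.8%). Hist1h2bc was the farthest down, at 1.31, 5.24, 13.6, 12.5 and 7.09 CPM in non-cycling T cells (log2 difference -3.54, SE 0.19, edgeR adjusted p = 1.11e-07) and lower than in non-cycling phagocytes of the same library in all 5.

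Genes that process histone mRNA or deposit histones had smaller median differences between cycling and non-cycling cells than the 3.30 of the histone genes in phagocytes. Slbp, the stem-loop binding protein, was higher in cycling phagocytes by 1.18 (SE 0.05, edgeR adjusted p = 1.49e-08), in cycling T cells by 1.501 and in cycling tumour cells by 0.55 on the log2 scale. Of 16 listed genes of histone mRNA processing and transcription, 11 were higher and 1 lower in cycling phagocytes (background 20.7% and 23.2%), with a median of 0.51, among them Eri1 (1.21), an exonuclease that trims histone mRNA ends, and Casp8ap2 (0.81). Of 21 histone chaperones and acetylation genes, 18 were higher (median 0.98), led in size by Asf1b (3.82), an H3-H4 chaperone, and including Chaf1a (2.34), a subunit of chromatin assembly factor 1, and Nap1l1 (0.98), an H2A-H2B chaperone. Of 14 listed genes of histone variants, 10 were tested, 8 were higher and 1 lower. The 10 included H2afx (3.23), the variant phosphorylated at DNA breaks, Cenpa (2.64), the H3 variant of centromeres, and H2afz (1.16). In S-leaning against G2M-leaning phagocytes Slbp ran opposite to the histone genes, at 1.03, while H2afx (-3.00) and Cenpa (-4.42, also on the G2M list) ran with them. In cycling tumour cells against phagocytes Slbp was at -0.51, H2afx at -2.48 and H3f3a at -1.84, and H1fx, a linker histone variant, at -7.45. The 3 lists had 6 of 16, 9 of 21 and 8 of 10 tested genes lower there, and 1, 4 and 1 higher, where 39.4% of all genes were lower and 33.1% higher, so the first 2 lists stood near the background in genes lower.

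Between libraries, the PBS library held less histone RNA per cycling cell class than PD1+CTLA4. The ratio of summed CPM was 0.375 (95% interval 0.367 to 0.383) in cycling phagocytes, 0.403 (0.380 to 0.428) in cycling T cells and 0.393 (0.380 to 0.407) in cycling tumour cells. In phagocytes 39 of 54 measured members were at least 2-fold lower in PBS (on CPM plus 1, at least 30 UMIs over the pair), compared with 6.38% of genes, and 1 was at least 2-fold higher (6.92%). In T cells 28 of 41 were (13.0% of genes) and in tumour cells 19 of 29 (7.78%; 9 members with 5 CPM added). Mki67 and Top2a were lower as well in these PBS phagocytes, at 288.9 and 235.3 CPM against 483.5 and 502.7 CPM. The lowest phagocyte ratios were those of Hist2h2aa1 (0.0601), Hist1h4h (0.0799), Hist1h4a (0.0959), Hist1h3c (0.114) and Hist1h2be (0.127). Hist4h4 went the other way at 2.24 (1.82 to 2.78), as did Hist2h2be at 1.29, and Hist1h1a was level at 1.06. The labels name a 5 prime kit for every library. The labels and headers do not tell whether PBS was made with the same kit version and chemistry as the treated libraries, so a PBS ratio may also compare chemistries. Treatment and the technical features that set PBS apart cannot be told apart in this design.

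Among treated libraries the summed level differed less. Against PD1+CTLA4, cycling phagocytes stood at 0.871 in PD1+CD40, 0.842 in CD40+CTLA4 and 1.09 in Triplet, with 3 of 57, 5 of 58 and 0 of 58 members at least 2-fold lower (background 5.39, 6.10 and 1.14%). In each of them 1 member was at least 2-fold higher (background 2.45, 3.12 and 2.20%). Cycling T cells stood at 1.33, 1.20 and 1.22, with 9 of 43, 4 of 42 and 6 of 46 members at least 2-fold higher (background 2.3, 1.52 and 1.36%). The 4 in CD40+CTLA4 were Hist1h2ap, Hist1h2ai, Hist1h2br and Hist1h3b. At least 2-fold lower in cycling T cells were 0 of 43, 1 of 42 and 0 of 46 members (background 6.32, 4.36 and 2.03%). Cycling tumour cells stood at 1.15, 1.33 and 1.18, with 5 of 29, 9 of 30 and 3 of 31 members at least 2-fold higher (background 3.17, 4.06 and 0.506%), on 20, 40 and 185 cells. Those in PD1+CD40 were Hist2h2be, Hist1h4i, Hist1h2bh, Hist1h4c and Hist1h4a, and those in Triplet were Hist1h2ap, Hist1h4c and Hist1h4a. At least 2-fold lower in cycling tumour cells were 4 of 29, 2 of 30 and 0 of 31 members (background 15.1, 7.86 and 0.94%). Hist1h2ap was the member at least 2-fold higher in phagocytes of all 3 libraries that received anti-CD40, and one of those higher in their T cells. Its ratio to PD1+CTLA4 was 2.97 (2.78 to 3.17), 3.74 (3.51 to 3.99) and 2.39 (2.23 to 2.55) in cycling phagocytes and 3.89, 4.90 and 2.45 in cycling T cells. With 7.09% of windows of its own, Hist1h2ap shares most of its sequence with other genes, so these ratios are uncertain for the gene itself.

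Phagocytes thinned to 1000 UMIs held a histone UMI in 31.6, 43.6, 45.8, 44.0 and 50.3% of cells (79.6, 87.4, 91.2, 91.9 and 95.9% unthinned). The share called cycling was 2.62, 7.56, 4.87, 4.93 and 9.52% after thinning (25.7, 28.6, 30.7, 30.6 and 44.9% unthinned). PBS was lowest and Triplet highest in all 4 of these series. With 1 library per group these orders have no replicate check, and the libraries differ in depth per cell as given above.

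In PBS a large part of the histone UMIs lay in barcodes too small to be taken as cells. In the 2 libraries that list all barcodes, those with fewer than 100 UMIs, taken as a reading of free RNA, held 36.7% of the histone UMIs but 5.95% of all UMIs in PBS, and 7.87% and 6.58% in CD40+CTLA4. The histone level in these barcodes was 4505 CPM against 492.5 CPM in the rest of PBS, and 1862 against 1535 CPM in CD40+CTLA4. Of members with at least 200 UMIs, 25 of 30 were at least 2 times as frequent in the small barcodes of PBS (background 1.03% of genes), and 1 of 49 in CD40+CTLA4 (background 1.94%). Hist1h1b was at 792.8 CPM there against 56.4 CPM in the rest of PBS, with 47.1% of its UMIs in small barcodes, and Hist1h2bm (63.2%) and Hist1h2af (60.6%) had even larger shares. The 5 members under 2 times the share of all UMIs were Hist2h2be (5.24%), Hist1h2bc (5.61%), Hist2h4 (5.99%), Hist1h4i (6.45%) and Hist1h3d (6.75%). Hist4h4 (12%) and Hist1h1c (12.3%) lay just above that limit. Small barcodes of the other 3 libraries were not analysed here. The part of free RNA in the low PBS values of cells was not tested.

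**Figure D4:**
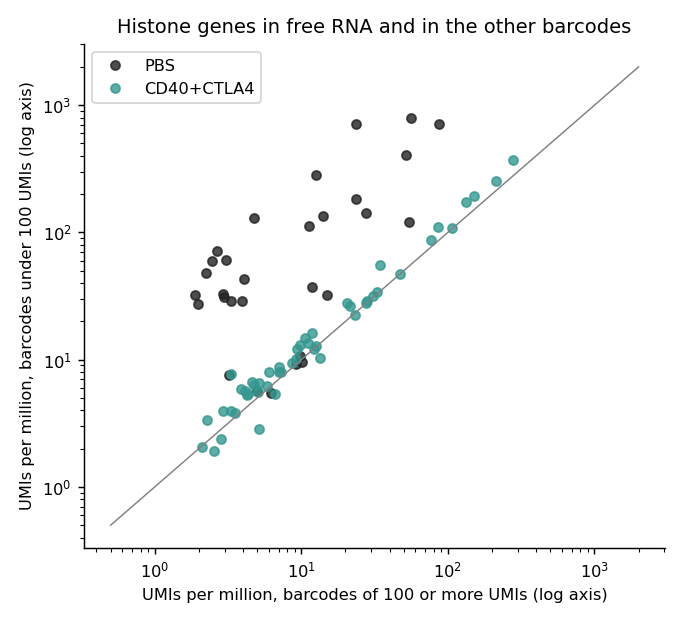
Level of each member (CPM, log axes) in barcodes under 100 UMIs against the other barcodes, for PBS and CD40+CTLA4, with the line of equal levels. In PBS 25 of 30 members with at least 200 UMIs lie at 2 times or more, and in CD40+CTLA4 1 of 49.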

How the data were processed

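Single-cell RNA was measured in 5 pooled libraries, 1 per group. The authors deposited matrices of UMI counts per gene and barcode, made with Cell Ranger per the submitters' processing notes (version 4 for PBS and 7.1.0 for the other libraries, per the file headers). The notes name the build mm9. The notes do not say which annotation was used, and no coordinates are given here.

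A barcode counted as a cell when its UMIs numbered 500 or more, its genes 300 or more, and mitochondrial UMIs made up no more than 10%. Cells of all libraries were clustered (2000 variable genes without histone and cell cycle genes, 30 components, 15 neighbours, Leiden, leidenalg 0.10.2, scikit-learn 1.9.0, igraph 0.11.9). A cluster was named where at least 3 markers of a class reached 20 CPM and its marker score stood clear of the next class. Clusters correlated above 0.9 with the profile of free RNA, and with a median under 2500 UMIs, were left unnamed. The profile was that of CD40+CTLA4, used for all 5 libraries. These limits were set after the clusters were seen. No doublet caller was run. Counts were summed per library, class and state where at least 20 cells were present, and tested in R 4.3.3 with edgeR 4.0.16 (filterByExpr, TMM, quasi-likelihood test, library as a block, Benjamini-Hochberg over all genes tested). Cells with 1 UMI of Mki67 and Top2a entered neither state. CPM is UMIs per 1000000 UMIs of the summed cells. Intervals are exact (Poisson, Clopper-Pearson or conditional binomial; scipy 1.17.1). DESeq2 1.42.0 served as an alternative. On simulated counts with known changes the cycling contrasts recovered 86.0 to 93.9% of 2-fold changes and 100.0% of 4-fold changes, and the contrast of S-leaning and G2M-leaning T cells 62.0% of 2-fold changes. The simulation used a fixed dispersion not estimated from these data and changed only genes above a set mean count. Its rates therefore need not hold for these libraries or for members with few UMIs. Contrasts between lineages were not simulated.

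Every member is covered by counts. Genes with values are the 15 members with the most UMIs, the 6 highest and 6 lowest of each tested contrast, the 5 highest and 5 lowest ratios between libraries, and up to 5 genes per pathway list, from which the text takes a part. Other members named beside them were chosen after their values were seen. The members and lists were chosen with earlier results of these data known. Transcript ends and gene order come from GENCODE vM21 (GRCm38).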

Additional observations from a re-analysis of the deposited data

Results flagged for a closer look

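The summed histone level of non-cycling phagocytes in PBS, 221.2 CPM, lay far from those of the other 4 libraries by Dixon's criterion for 5 values. It was the only one of 8 groups of libraries looked at that did so, and chance gives such a gap in about 1 in 20 groups. PBS also differed from the other libraries in its Cell Ranger version, barcodes and share of histone UMIs in small barcodes. Their part in the value was not tested.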

How the results depend on the processing

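With 1 library per group, no treatment difference could be tested, and depth limits members near 0 UMIs to bounds. No paired analysis was possible because each group has replicate 1 alone, and the library was the replicate block of the within-library contrasts instead. Of the main counts and levels recomputed, 169 stayed within the limits of change and 18 moved. The cause of each change below was not tested. Without the replicate block, members called higher in cycling tumour cells numbered 6, members lower in S-leaning tumour cells 7, and members higher in cycling T cells than phagocytes 23. With no low-count filter, 55 members were higher in cycling T cells. With classes from marker UMIs per cell, members lower in cycling tumour cells than in phagocytes numbered 29 and than in T cells 43, and members higher in non-cycling T cells than phagocytes 7. With 5 CPM added, 9 members were at least 2-fold lower in cycling tumour cells of PBS than of PD1+CTLA4. Thinned to 500 UMIs, 19.9, 31.2, 31.1, 30.9 and 37.2% of phagocytes held a histone UMI and 0.973, 2.53, 1.73, 1.67 and 3.15% were cycling.

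Leaving out each library in turn gave 49 to 54 members higher in cycling phagocytes, 22 to 38 in T cells and 17 to 26 in tumour cells. It gave 49 to 56, 25 to 34 and 18 to 22 lower in S-leaning cells of these lineages. For cycling cells it gave 46 to 51 lower in tumour cells than phagocytes, 25 to 39 lower than in T cells, and 38 to 42 higher in T cells than phagocytes. For non-cycling cells these were 15 to 19, 12 to 16 and 9 to 17.

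No member called in the main tests changed sign. Members without a call that did are given with their range when 1 library was left out (LOO) where that range crosses 0. They were, in cycling phagocytes, Hist2h3c2 (LOO -0.211 without PD1+CD40 to 0.13 without Triplet, 0.009 at 1 UMI and 0.026 at 4 UMIs of the cycling call) and, in cycling tumour cells, Hist1h4i (LOO -0.032 without Triplet to 0.241 without PBS, -0.015 at 1 UMI, -0.118 with marker classes). Between S-leaning and G2M-leaning cells they were Hist1h3a in T cells (LOO -0.09 without PD1+CTLA4 to 0.071 without PD1+CD40, -0.005 with DESeq2, -0.032 with no filter, -0.003 scaled by total UMIs, -0.018 without mixed barcodes), and in tumour cells Hist3h2a (LOO -0.403 without Triplet to 0.011 without CD40+CTLA4, 0.151 without mixed barcodes) and Hist1h2bc (LOO -0.049 without Triplet to 0.08 without PBS, -0.061 split at 1/2). Between cycling tumour cells and phagocytes they were Hist2h3b (0.041 with marker classes, 0.149 by total UMIs), Hist1h4c (0.058 by total UMIs) and Hist2h4 (LOO -0.092 without PBS to 0.252 without Triplet, -0.022 without mixed barcodes). Between non-cycling tumour cells and phagocytes they were Hist1h4h (LOO -0.262 without PD1+CTLA4 to 0.152 without Triplet, 0.486 by total UMIs), Hist2h2be (LOO -0.065 without PD1+CTLA4 to 0.729 without Triplet) and Hist2h2ab (LOO -0.047 without PBS to 1.641 without PD1+CTLA4). Against non-cycling T cells they were Hist2h2aa1 (0.046 with marker classes), Hist1h1c (0.067 by total UMIs), Hist1h4i (LOO -0.172 without PBS to 0.132 without Triplet, 0.769 with marker classes, 0.309 by total UMIs) and Hist2h2ac (LOO -0.092 without PD1+CTLA4 to 0.809 without PBS).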
